A study of Mus musculus with 6 samples.

Results

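The 10 genes described here encode the cyclins, kinases and inhibitors that act at the start of the cell cycle, with E2F1, the transcription factor they control. They are the D-type cyclins Ccnd2 and Ccnd3, the kinases Cdk4 and Cdk6, the E-type cyclins Ccne1 and Ccne2, the CDK inhibitors Cdkn1a (p21), Cdkn1b (p27) and Cdkn2c (p18), and E2f1. They were taken by symbol from the 23420 genes listed for every sample, and each had 1 row. The samples were B cells from the spleen, purified with beads from 3 BALB/c mice aged 7 to 11 weeks. Cells, 10M per culture, were either given the TLR9 agonist CpG (a synthetic oligodeoxynucleotide) at 10 µg/ml or left unstimulated for 4 hours, with 3 RNA-seq libraries in each group. Replicates 1 and 2 of each group were labelled female and replicate 3 male, all mice were wild type, and the labels do not say which animal gave which library. TLR9 is an endosomal receptor for unmethylated CpG DNA and is a strong mitogenic signal for mouse B cells.

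A resting lymphocyte sits outside the cell cycle with high levels of CDK inhibitor. A mitogen induces D-type cyclins, which bind CDK4 or CDK6, and the resulting kinases phosphorylate the retinoblastoma family of pocket proteins and titrate p21 and p27 away from CDK2. E2F factors released from pocket proteins then drive cyclin E and the enzymes of DNA replication, and cyclin E with CDK2 completes the passage into S phase. In B cells cyclin D2 is the D-type cyclin known best for its induction by mitogens, and p27 is a brake on their entry into the cycle.

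All values are log2 CPM, read counts scaled to a common library total, and a change is the mean of the CpG-stimulated samples minus that of the unstimulated samples (log2FC), with its standard error (SE) and a false discovery rate (FDR) from limma over the 11233 genes that passed a filter on low values. Genes are called raised or lowered at an FDR under 0.05. The deposited values were quantile normalized, so the 6 samples share nearly the same distribution and hold no measure of RNA content per cell. In bulk samples fewer cells with a transcript and less of it per cell cannot be told apart. The samples had the B cell markers: 6 of 7 were listed, all 6 were tested, and their summed log2 CPM was 11.14 to 11.35 in the stimulated and 11.76 to 11.99 in the unstimulated samples. Of the 7 T cell markers listed only Lck passed the filter on low values, and none of 4 NK cell markers did, while summed myeloid markers had a log2 CPM of 3.34 to 3.98 in the stimulated and 2.91 to 3.89 in the unstimulated samples. Erythroid markers were highest in replicate 2 of both groups for 6 of the 6 genes tested of 8 listed, against 14.6% of all tested genes with that pattern, and their sum ranged from 8.59 to 12.3 and from 8.66 to 11.9 in the stimulated and unstimulated samples. Hba-a1, a defining erythroid gene, was at the zero level, while the globin gene Hbb-bs lay between 8.46 and 12.16 over the 6 samples. Why these genes differ was not tested.

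Promoter windows of the kinase genes are shown because Cdk4 and Cdk6 moved together and the E-box, the CACGTG hexamer bound by MYC with MAX, stood in both. That choice was made with the values and matches known, so the shares of all windows given below do not allow for it. Whether MYC acts on either gene here was not tested. Each window runs from 250 bases before to 50 bases after a start site in RefSeq (GRCm38.p6). The Cdk4 window is chr10:127063285-127063584 on the plus strand and the Cdk6 window is chr5:3343643-3343942 on the plus strand. E-boxes are in capitals.
Cdk4: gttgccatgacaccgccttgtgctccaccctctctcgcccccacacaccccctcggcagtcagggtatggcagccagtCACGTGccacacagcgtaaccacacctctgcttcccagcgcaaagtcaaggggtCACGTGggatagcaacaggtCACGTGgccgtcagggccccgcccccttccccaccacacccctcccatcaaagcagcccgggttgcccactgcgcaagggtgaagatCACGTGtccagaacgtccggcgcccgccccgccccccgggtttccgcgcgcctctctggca
Cdk6: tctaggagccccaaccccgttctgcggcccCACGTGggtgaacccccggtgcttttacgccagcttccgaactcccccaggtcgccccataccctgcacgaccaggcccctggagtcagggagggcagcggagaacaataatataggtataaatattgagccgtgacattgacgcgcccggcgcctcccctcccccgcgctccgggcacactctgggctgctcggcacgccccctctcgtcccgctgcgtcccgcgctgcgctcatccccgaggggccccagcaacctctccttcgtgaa
The Cdk4 window held 4 E-boxes, which began at -172, -118, -98 and -11 from the start site, and the Cdk6 window held 1 that began at -220. An E-box was present in 7.15% of all 32851 windows, and 4 or more were present in 8 windows (0.0244%). The table of windows held 8 of the 10 members, with 11 windows among them, and the members not in it were Ccnd2 and Ccne2. The windows of Cdk6, E2f1 and Cdkn2c and 1 window each of Cdkn1a and Ccnd3 lie wholly inside the span annotated for the gene, so the bases upstream of the outermost annotated start of Cdk6, E2f1 and Cdkn2c were not searched. Of the members other than Cdk4 and Cdk6, a window of Cdkn2c held an E-box 35 bases after the start site, and a window of Ccnd3 held a FOXO motif (GTAAACA, present in 3.65% of windows on either strand) at -243. The E2F motifs searched (TTTCGCGC, TTTGGCGC, TTTCCCGC and TTTGCCGC, in 2.26% of windows) and the NF-kB motif (GGGANTTTC, in 1.11%) did not occur in the 11 windows. A match gives the letters only and is not evidence of binding.

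Of the 10 genes 7 were raised by CpG and 3 were lowered. Across all tested genes 37.6% were raised and 36.7% were lowered, so a call by itself was common in these samples. With a log2FC over 1 as a further threshold, 5 of the 10 were raised (15.8% of all tested genes) and 1 of the 10, Cdkn1b, was lowered with a log2FC under -1 (15.3% of all tested genes). The 3 stimulated and 3 unstimulated values did not overlap for any of the 10 genes, which was also so for 77.7% of all tested genes. The median log2FC of the 10 was 0.96, beside 0.0033 for all tested genes, whose middle 50% lay between -0.62 and 0.65. The 10 genes were chosen with earlier results of these data known, so these contrasts are a description and not a test.

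**Figure D1:**
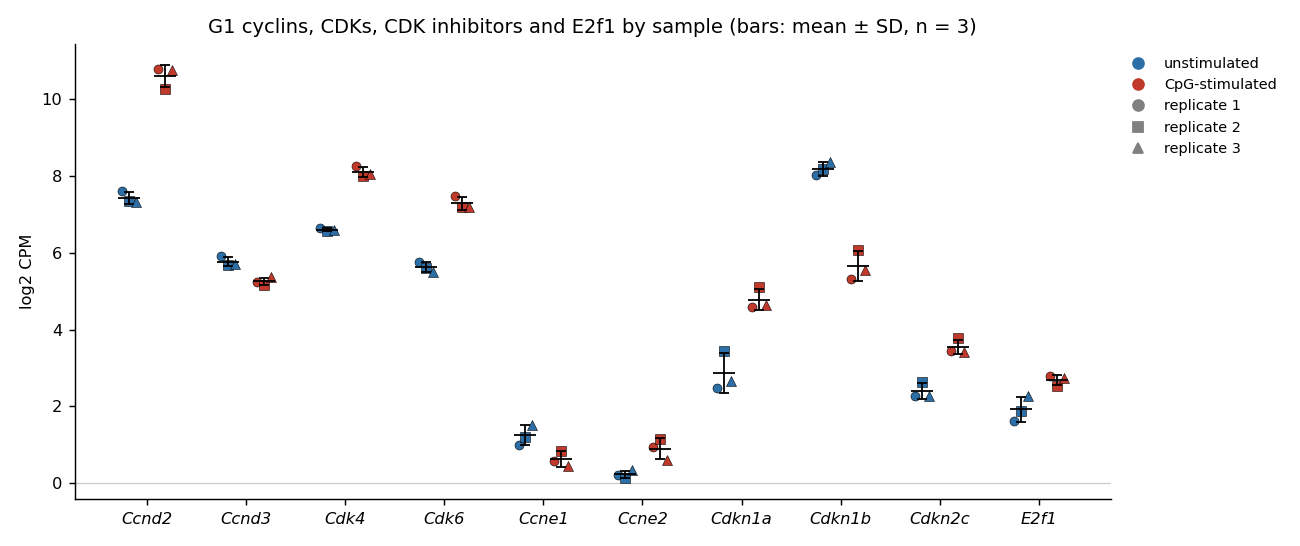
log2 CPM (vertical axis) of the 10 G1 genes (horizontal axis) in each unstimulated (blue) and CpG-stimulated (red) sample, with a symbol for each replicate and bars for the mean ± SD of 3 samples. Ccnd2 stands at 10.25 to 10.77 in stimulated samples against 7.32 to 7.60, and Cdkn1b at 5.32 to 6.08 against 8.01 to 8.37.

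Ccnd2, which encodes cyclin D2, rose 9.0-fold and was the member with the largest change. Its log2 CPM in replicates 1, 2 and 3 was 10.77, 10.25 and 10.76 in the stimulated samples and 7.60, 7.35 and 7.32 in the unstimulated samples. The groups were far apart, with 2.65 between the lowest stimulated and the highest unstimulated value. Means were 10.60 ± 0.30 and 7.43 ± 0.15 (SD, n = 3), for a log2FC of 3.17 (SE 0.13, limma FDR = 4.14e-08), which was higher than that of 99.2% of tested genes. The Ccnd2 gene lies on chr6:127125162-127152193, minus strand (GRCm38), and its exons cover 6711 bases. It overlaps 9330179D12Rik on the opposite strand, which had a mean log2 CPM of 2.73 in the stimulated and -1.21 in the unstimulated samples (log2FC 3.94, limma FDR = 1.68e-07). Whether the counting used strand is not given in the sources used here, so how reads in the shared stretch were assigned is not known.

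Ccnd3, which encodes cyclin D3, moved the other way by a small amount. Stimulated replicates 1, 2 and 3 had 5.24, 5.16 and 5.36, and unstimulated replicates 5.91, 5.68 and 5.71. All stimulated values were lower, the nearest by 0.32. The log2FC was -0.52 (SE 0.09, limma FDR = 0.000336), a 1.43-fold decrease. Ccnd3 lies on chr17:47505051-47599691, plus strand, and overlaps Bysl on the opposite strand, which rose by 1.89 (limma FDR = 2.86e-07) and so moved against Ccnd3. Ccnd1, which encodes the D-type cyclin that most lymphocytes hardly use, was low at 1.24 ± 0.20 in the stimulated and 0.94 ± 0.26 in the unstimulated samples (SD, n = 3), and its log2FC of 0.30 did not pass the test.

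Divided by exon length, the D-type cyclins changed in make-up and in sum. In unstimulated samples Ccnd2 gave 52.9 ± 0.66% of the summed CPM per kb of the 3 genes, Ccnd3 46.0 ± 0.77% and Ccnd1 1.07 ± 0.11% (SD, n = 3). After CpG Ccnd2 gave 93.4 ± 1.05%, Ccnd3 6.36 ± 0.96% and Ccnd1 0.265 ± 0.092%. The sum itself went from 48.6 ± 4.82 to 250 ± 45.7 CPM per kb. Within single samples, the log2 ratio of Ccnd2 to Ccnd3 per kb was 0.24, 0.21 and 0.15 in unstimulated replicates 1, 2 and 3 and 4.08, 3.63 and 3.95 in the stimulated ones. Ccnd2 was thus 1.15-fold above Ccnd3 without CpG and 14.8-fold above it with CpG on that scale. Without division by exon length the mean log2 ratios were 1.66 and 5.34, with the same difference between the groups. A ratio within a sample does not move with the scaling of that sample. The difference of 3.69 between the groups had an exact permutation p of 0.1 (two-sided), which is the smallest that 3 against 3 samples allow, and the same held for each of the 5 pairs of members compared (adjusted over the 5, p = 0.1, exact). With samples matched by replicate number, an exact sign-flip test gave p = 0.25 for each of the 5. That is the smallest p such a test can give with 3 matched samples per group. In every pair but Cdk6 with Cdk4 the members moved in opposite directions, each without overlap between the groups. The p-values of those pairs were thus fixed in both tests by the single genes and add nothing to them.

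**Figure D2:**
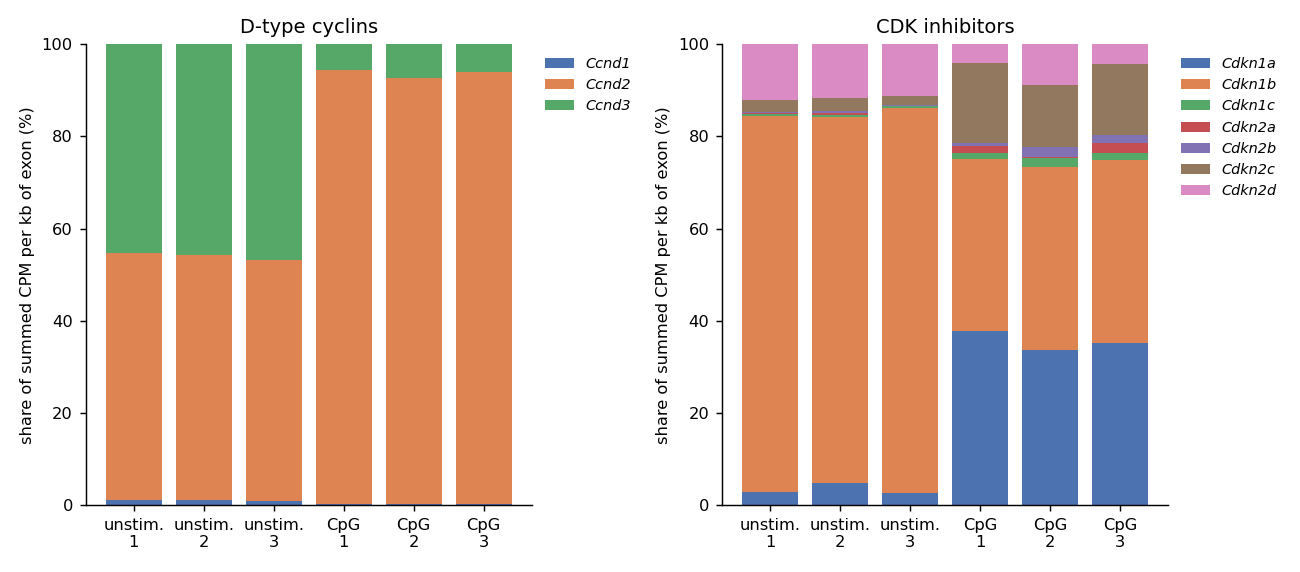
Share of each gene (percent, vertical axis) in the summed CPM per kb of exon of the D-type cyclins (left) and the CDK inhibitors (right), 1 bar per sample. Ccnd2 takes 92.2 to 94.2% of the D-type cyclin sum in the CpG-stimulated samples and 52.2 to 53.5% in the unstimulated samples, while Cdkn1b takes 37.4 to 39.7% of the inhibitor sum against 79.1 to 83.4%.

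Cdk4 and Cdk6, the catalytic partners of D-type cyclins, rose together. Cdk4 had a log2 CPM of 8.25, 8.01 and 8.06 in stimulated replicates 1, 2 and 3 and of 6.64, 6.56 and 6.60 in unstimulated ones. Its means were 8.10 ± 0.13 and 6.60 ± 0.04 (SD, n = 3), and its log2FC of 1.51 (SE 0.07, limma FDR = 7.08e-08) is a 2.84-fold increase. The replicates of each group lay close together beside the distance of 1.37 between the groups. Cdk6 had 7.47, 7.18 and 7.20 with CpG and 5.77, 5.61 and 5.49 without, again with no overlap, and rose by 1.66 (SE 0.10, limma FDR = 2.06e-07), or 3.16-fold. Cdk4 lies on chr10:127063534-127067920 and Cdk6 on chr5:3341485-3531008, both on the plus strand of GRCm38. Tspan31, on the opposite strand at Cdk4, had a log2FC of -0.06 and did not pass the test (limma FDR = 0.634).

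The balance of these kinases differed little between the groups. Cdk4 made up 91.7 ± 0.63% of their summed CPM per kb in the unstimulated and 90.8 ± 0.22% in the stimulated samples (SD, n = 3). Cdk6 stood 11.0-fold below Cdk4 per kb without CpG and 9.92-fold below it with CpG, and the log2 ratio differed by 0.15 between the groups, or by 0.09 to 0.21 with each sample left out in turn (exact permutation p = 0.1, the smallest possible). Their sum was 51.5 ± 1.49 CPM per kb without and 148 ± 13.9 CPM per kb with CpG. Not divided by exon length, Cdk6 was nearer to Cdk4, with a mean log2 ratio of -0.98 without and -0.82 with CpG.

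The E-type cyclins, which activate CDK2, were the members with the fewest reads and the least firm calls. Ccne1 had 0.59, 0.85 and 0.44 in stimulated replicates 1, 2 and 3 and 1.01, 1.21 and 1.53 in unstimulated ones, so all stimulated values were lower but the groups came within 0.16 of each other. Its log2FC was -0.63 (SE 0.23, limma FDR = 0.0329). Ccne2 had 0.93, 1.15 and 0.61 with CpG and 0.22, 0.13 and 0.33 without, 0.28 apart at the nearest, and a log2FC of 0.67 (SE 0.25, limma FDR = 0.0320). With the replicate number as a block its FDR was 0.0520. These levels were worth 24.1 to 51.2 reads for Ccne1 and 19.5 to 39.3 reads for Ccne2 at a common library of 17.8M reads. The Ccne1 call was lost when stimulated replicate 1 or 3 or unstimulated replicate 2 or 3 was left out (FDR = 0.0671, 0.0997, 0.0681 and 0.136), and the Ccne2 call was lost without stimulated replicate 1 or 2 (FDR = 0.0742 and 0.109) or any unstimulated replicate (FDR = 0.0660, 0.0828 and 0.0537). All of these FDR values are from limma.

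In opposite directions, the E-type cyclins came closer to each other. The log2 ratio of Ccne2 to Ccne1 per kb was -1.46, -1.76 and -1.87 in unstimulated replicates 1, 2 and 3 and -0.33, -0.38 and -0.51 in the stimulated ones, a difference of 1.29 with no overlap (exact permutation p = 0.1, the smallest possible). Without division by exon length the mean log2 ratio was -1.02 without and 0.27 with CpG, so which E-type cyclin was higher after CpG depended on that scale. Ccne1 went from 76.4 ± 2.69% to 57.0 ± 1.52% of their summed CPM per kb (SD, n = 3). The sum was 1.57 ± 0.24 without and 1.36 ± 0.22 CPM per kb with CpG, so that the ranges of the groups overlapped. Ccne1 lies on chr7:38097984-38107534, minus strand, and Ccne2 on chr4:11191351-11204779, plus strand. Ints8, on the opposite strand at Ccne2, did not pass the test (log2FC -0.13, limma FDR = 0.162).

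Cdkn1b, which encodes p27, fell 5.80-fold, and 1.93% of tested genes had a more negative log2FC. Its log2 CPM was 8.01, 8.18 and 8.37 in unstimulated replicates 1, 2 and 3, the highest inhibitor in these cells, and 5.32, 6.08 and 5.56 after CpG. The groups were 1.93 apart at the nearest, and stimulated replicate 2 lay above the other stimulated samples. Means were 8.19 ± 0.18 and 5.65 ± 0.39 (SD, n = 3), for a log2FC of -2.54 (SE 0.17, limma FDR = 4.54e-07). The gene lies on chr6:134920401-134925513, plus strand, and has 2 merged exons of 4552 bases.

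Cdkn1a, which encodes p21, rose 3.77-fold from a low level. Unstimulated replicates 1, 2 and 3 had a log2 CPM of 2.49, 3.45 and 2.67, and stimulated replicates had 4.59, 5.10 and 4.65. Replicate 2 was the highest in both groups, as the erythroid markers were, and the part of those cells in the value was not tested, but the groups were 1.14 apart at the nearest. The log2FC was 1.91 (SE 0.23, limma FDR = 3.45e-05) and became 2.04 with replicate 2 of both groups left out. Cdkn1a lies on chr17:29090976-29100727, plus strand.

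Cdkn2c, which encodes p18, an INK4 inhibitor that binds CDK4 and CDK6 only, rose 2.23-fold. Stimulated replicates 1, 2 and 3 had 3.44, 3.77 and 3.42 and unstimulated replicates had 2.27, 2.63 and 2.27, with replicate 2 highest in both groups, as for Cdkn1a. No value of one group reached the other, and the log2FC was 1.15 (SE 0.15, limma FDR = 5.98e-05). The gene lies on chr4:109660876-109667189, minus strand. Among the 4 other CDK inhibitors, Cdkn2d, which encodes the INK4 inhibitor p19, fell by 2.58 (limma FDR = 0.000146), from 3.65, 3.81 and 3.84 in unstimulated replicates 1, 2 and 3 to 0.50, 2.30 and 0.78 in the stimulated ones. Stimulated replicate 2 stood well above the other stimulated samples there too. Cdkn1c (p57) had a log2FC of 0.36 that did not pass the test (limma FDR = 0.453), and Cdkn2a and Cdkn2b were below the filter on low values.

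Put together per kb of exon, the inhibitors went from a single dominant gene to several. The 7 CDK inhibitor genes summed to 79.1 ± 8.86 CPM per kb in unstimulated and 29.0 ± 7.47 in stimulated samples (SD, n = 3). Cdkn1b made up 81.3 ± 2.13% of that sum without CpG and 38.8 ± 1.28% with it, while Cdkn1a went from 3.54 ± 1.24% to 35.6 ± 2.02% and Cdkn2c from 2.50 ± 0.40% to 15.4 ± 1.89%. Cdkn2d gave 11.7 ± 0.53% and 5.81 ± 2.69%. The log2 ratio of Cdkn1a to Cdkn1b per kb was -4.78, -4.00 and -4.95 in unstimulated replicates 1, 2 and 3 and 0.01, -0.24 and -0.16 in the stimulated ones. Cdkn1b was thus 23.9-fold above Cdkn1a without CpG and 1.09-fold above it with CpG, a difference of 4.45 on the log2 scale (exact permutation p = 0.1, the smallest possible). Not divided by exon length, the mean log2 ratio of Cdkn1a to Cdkn1b was -5.32 without and -0.87 with CpG. How near the 2 genes came after CpG thus depended on that scale.

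The ratio of cyclin D2 to p27 transcripts turned over. Per kb, Ccnd2 was at 0.400 of the Cdkn1b level in unstimulated samples and 20.9-fold above Cdkn1b in stimulated samples. The log2 ratio was -0.97, -1.39 and -1.60 in unstimulated replicates 1, 2 and 3 and 4.89, 3.61 and 4.65 in the stimulated ones, with the lowest stimulated value in replicate 2. The pair joins the members with the largest rise and the largest fall, so its difference of 5.71 had to be the largest of the 5. Its exact permutation p was 0.1, the smallest possible. Without exon length the mean log2 ratio was -0.76 in unstimulated and 4.94 in stimulated samples.

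**Figure D3:**
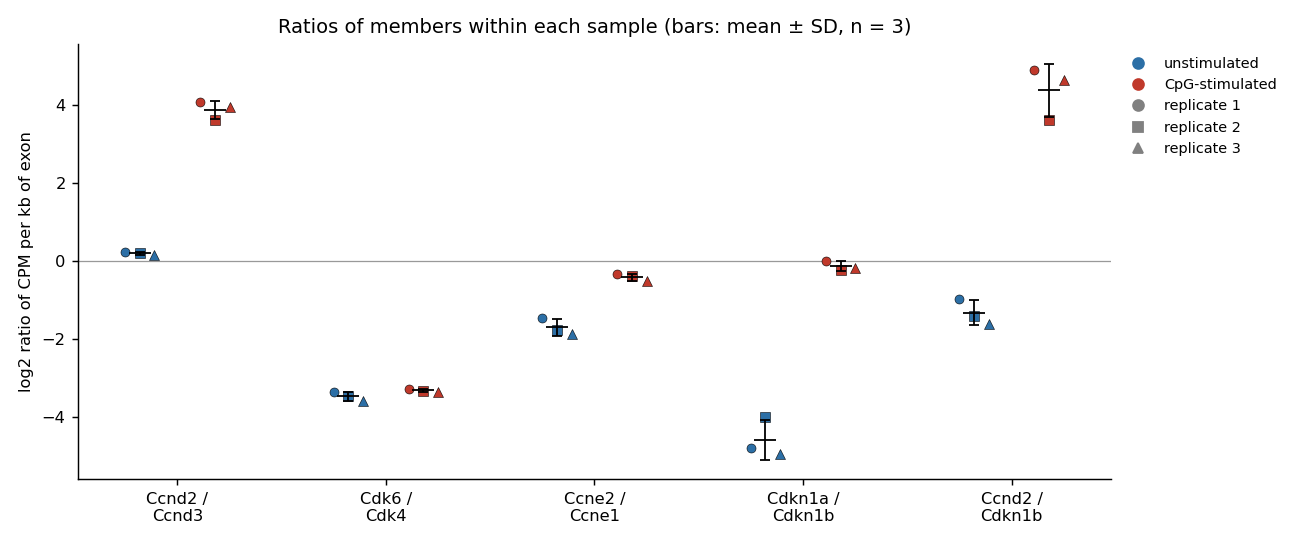
log2 ratio of CPM per kb of exon (vertical axis) for 5 pairs of members (horizontal axis) in each unstimulated (blue) and CpG-stimulated (red) sample, with a symbol for each replicate and bars for the mean ± SD of 3 samples. The Ccnd2 to Cdkn1b ratio changes sign, from -1.60 to -0.97 without CpG to 3.61 to 4.89 with it, while the Cdk6 to Cdk4 ratio stays between -3.59 and -3.27.

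E2f1, an activator of replication genes, rose 1.70-fold. Stimulated replicates 1, 2 and 3 had a log2 CPM of 2.79, 2.54 and 2.73 and unstimulated replicates had 1.63, 1.88 and 2.27. Unstimulated replicate 3 came within 0.28 of the lowest stimulated value. The log2FC was 0.76 (SE 0.18, limma FDR = 0.00352), and leaving out each sample in turn gave 0.62 to 0.94. E2f1 lies on chr2:154559407-154569892, minus strand.

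Ordered by log2 CPM per kb, the unstimulated samples had Cdkn1b first at 6.0, then Cdk4 at 5.56, Ccnd2 at 4.68, Ccnd3 at 4.48, Cdk6 at 2.10, Cdkn1a at 1.42, Cdkn2c at 0.96, E2f1 at 0.27, Ccne1 at 0.25 and Ccne2 at -1.45. Neighbours whose samples overlapped in that order were Ccnd2 with Ccnd3, Cdk6 with Cdkn1a, Cdkn1a with Cdkn2c, and E2f1 with Ccne1. In the stimulated samples Ccnd2 came first at 7.85, followed by Cdk4 at 7.07, Ccnd3 at 3.96, Cdk6 at 3.76, Cdkn1b at 3.47, Cdkn1a at 3.34, Cdkn2c at 2.12, E2f1 at 1.03, Ccne1 at -0.38 and Ccne2 at -0.78. There each gene from Ccnd3 to Cdkn1a overlapped its neighbour, as did Ccne1 and Ccne2, and the others were separate. Cdkn1b thus went from the first place to the fifth, and Ccnd2 from the third to the first.

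For the members with the largest rise and fall, the tested genes with the most similar pattern were found by the Euclidean distance of the 6 centred log2 values. Nearest to Ccnd2 were Dusp14 (distance 0.337, log2FC 3.22), Irak1bp1 (0.457, log2FC 3.04) and Cd44 (0.475, log2FC 2.95). Nearest to Cdkn1b were Pde2a (distance 0.117, log2FC -2.53), the atypical cyclin gene Ccng2 (0.154, log2FC -2.46) and Arhgef18 (0.162, log2FC -2.44).

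The kinases and activators that work with the 10 genes moved by less. Of 11 genes, 5 were raised, 1 was lowered and 5 did not pass the test, with a median log2FC of 0.40. Over all tested genes 37.6% were raised and 36.7% lowered. Cks1b, a subunit that joins CDKs to their substrates, rose by 1.18 (limma FDR = 9.03e-06), from 2.54 ± 0.04 to 3.72 ± 0.15 (SD, n = 3). Cdc25a, the phosphatase that removes the inhibitory phosphates from CDK2, rose by 0.97 (limma FDR = 1.22e-05). Cdk7, the kinase of the CDK-activating complex, rose by 0.80, and its partners Ccnh and Mnat1 had a log2FC of 0.07 and -0.11 that did not pass the test. Cdc37, the chaperone adaptor that folds CDK4, rose by 0.77 and Fbxw7, which marks cyclin E for degradation, by 0.40. Cdk2, the kinase of cyclin E, fell by 0.37 (limma FDR = 0.002), from 5.08, 5.21 and 5.26 to 4.90, 4.78 and 4.78 in replicates 1, 2 and 3. Skp2, which marks p27 for degradation, had a log2FC of 0.43 (limma FDR = 0.0686), and Ccna2, the S-phase cyclin, 0.16, and neither passed the test. Without stimulated replicate 2 Skp2 was called (limma FDR = 0.0302).

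All 3 pocket proteins, the substrates of cyclin D kinases, were lowered. Rb1 fell by 1.43 (limma FDR = 5.36e-08), from 7.26, 7.16 and 7.34 in unstimulated replicates 1, 2 and 3 to 5.82, 5.84 and 5.83. Rbl1 (p107) fell by 1.24 (limma FDR = 1.23e-06) and Rbl2 (p130) by 1.55 (limma FDR = 5.87e-07), without overlap. Their summed CPM per kb was 58.6 ± 4.19 without and 21.5 ± 1.12 with CpG (SD, n = 3), and Rb1 gave 56.1 ± 0.55% and 56.8 ± 2.74% of it. With the other E2F and DP genes, 11 of 12 were tested, of which 5 were raised and 4 lowered, with a median log2FC of 0.29. All tested genes had shares of 37.6% raised and 36.7% lowered. Tfdp1, the main DP partner of E2F factors, rose by 1.76 (limma FDR = 2.11e-07) and its relative Tfdp2 fell by 1.92 (limma FDR = 3.22e-05). E2f4 and E2f5, which act mostly as repressors, rose by 0.77 and 0.76, E2f6 by 1.30 and E2f3 by 0.29. The E2f3 call was lost without stimulated replicate 2 (limma FDR = 0.0580), unstimulated replicate 2 (0.0689) or unstimulated replicate 3 (0.0855), and without replicate 2 of both groups (0.116). E2f2 had a log2FC of 0.58 and was not called (limma FDR = 0.0594), but it was with the replicate number as a block (limma FDR = 2.11e-05) and without stimulated replicate 1 (0.0119) or unstimulated replicate 2 (0.0125). E2f8 had -0.54 and was not called (limma FDR = 0.179), and E2f7 was below the filter.

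**Figure D4:**
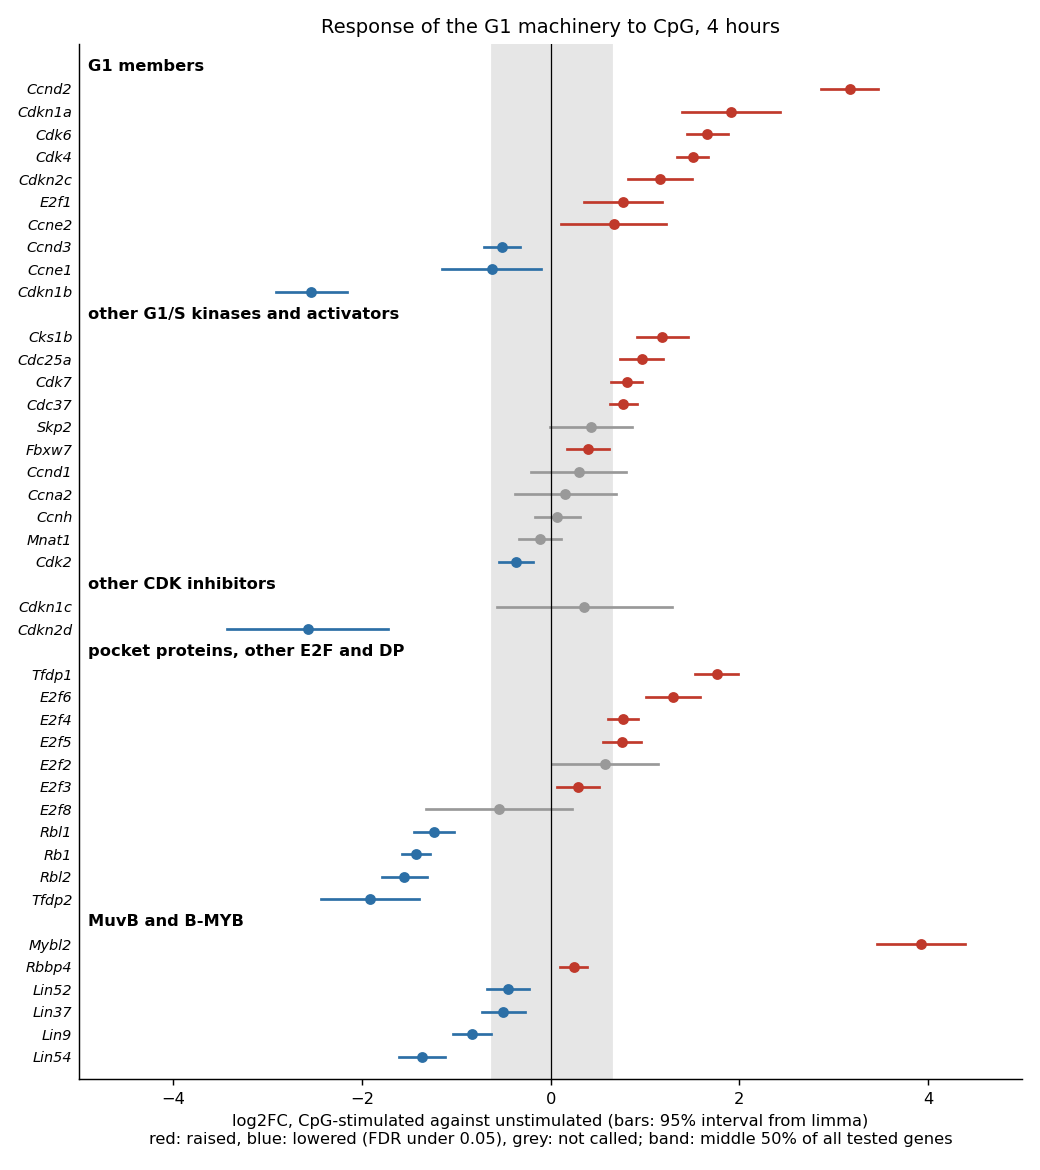
log2FC of CpG-stimulated against unstimulated samples (horizontal axis, bars: 95% interval from limma, n = 3 and 3) for the 10 G1 genes and 4 lists of genes that work with them (vertical axis). Red marks genes that were raised, blue those that were lowered and grey those not called. Ccnd2 at 3.17 and Mybl2 at 3.92 stand farthest to the right and Cdkn2d at -2.58 and Cdkn1b at -2.54 farthest to the left, outside the grey band from -0.62 to 0.65 that holds the middle 50% of all tested genes.

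The MuvB complex represses cell cycle genes in quiescent cells and, with B-MYB, activates them later. Mybl2, which encodes B-MYB and is itself a gene that E2F represses in quiescence, rose 15.2-fold, more than any of the 10. Its log2 CPM was 2.13, 2.47 and 1.51 in unstimulated replicates 1, 2 and 3 and 6.08, 5.77 and 6.03 after CpG (log2FC 3.92, SE 0.21, limma FDR = 1.14e-07). Of the 5 MuvB subunits 4 were lowered, Lin54 by a log2FC of -1.36, Lin9 by -0.83, Lin37 by -0.50 and Lin52 by -0.45, and Rbbp4, which many chromatin complexes share, rose by 0.24. The share lowered over all tested genes was 36.7%.

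Genes that E2F factors drive for S phase went in both directions, as all tested genes did (37.6% raised and 36.7% lowered). Of 24 genes 9 were raised, 7 lowered and 8 not called, and the median log2FC was 0.11. Tyms, thymidylate synthase, rose by 2.37 (limma FDR = 1.67e-06), from 0.32, 0.56 and 0.49 in unstimulated replicates 1, 2 and 3 to 2.92, 2.54 and 3.02. Orc1, a subunit of the origin recognition complex, rose by 1.86 and Pcna, the sliding clamp of DNA polymerase, by 0.81. In the other direction Cdt1, which loads the replicative helicase, fell by 1.01 (limma FDR = 4.37e-07) and Mcm4, a subunit of that helicase, by 0.52. For G2 and mitosis 2 of 16 genes were raised, Birc5 (survivin) by 1.31 and Cdc20 by 0.52, and 2 were lowered, Cenpe with a log2FC of -1.03 and Aurkb with -0.93, while 12 were not called and the median was 0.12. With the replicate number as a block, Cdk1 (log2FC 0.77, limma FDR = 0.0248) joined the raised and Mki67 (log2FC -0.50, limma FDR = 0.00359) the lowered genes of that list. Both were named after their values were seen.

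Cdkn1a is a target of p53, and the other p53 targets were mostly lowered. Of 20 genes 17 were tested, of which 5 were raised, 11 were lowered and 1 was not called, with a median log2FC of -0.74. Across all tested genes 37.6% were raised and 36.7% lowered. Fas, the death receptor, rose by 2.10 (limma FDR = 4.54e-07), Sesn2 by 1.68 and the nuclease gene Aen by 1.54. Bax and Bbc3 were the other raised genes, with a log2FC of 0.79 and 0.70. Trp53, which encodes p53, rose by 0.44 (limma FDR = 0.000205). Trp53, Bax and Bbc3 were named after their values were seen, and whether p53 acts on Cdkn1a here was not tested. Plk2 fell by 3.17 (limma FDR = 2.57e-06), from 7.76, 8.16 and 8.05 in unstimulated replicates 1, 2 and 3 to 4.39, 5.61 and 4.46, Trp53inp1 fell by 2.67 and the antiproliferative gene Btg2 fell by 2.13.

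Among 13 transcription regulators known to act on members of the pathway, 5 were raised, 7 lowered and 1 not called, with a median log2FC of -0.32. The shares over all tested genes were 37.6% raised and 36.7% lowered. The gene not called, Klf2, had a log2FC of -0.38 (limma FDR = 0.173) and was lowered with the replicate number as a block (limma FDR = 0.00355), and it was named after its values were seen. Stat5a, a signal transducer that acts on D-type cyclin genes, rose by 1.89 (limma FDR = 4.95e-08). Myc, which induces Ccnd2 and Cdk4 and represses Cdkn1a, rose by 1.05 (limma FDR = 7.77e-06), from 9.96, 9.88 and 9.63 in unstimulated replicates 1, 2 and 3 to 11.01, 10.70 and 10.91, and Bcl6, the repressor that sets up the germinal centre programme, by 1.03. Foxo3 and Foxo1, which activate Cdkn1b and repress D-type cyclins, fell by 2.0 (limma FDR = 6.71e-08) and 1.14 (limma FDR = 1.05e-07), and Klf4, a quiescence factor that activates Cdkn1a, fell by 1.53 (limma FDR = 0.00163). Foxo1 had a log2 CPM of 8.62, 8.65 and 8.56 without and 7.42, 7.53 and 7.48 with CpG.

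**Figure D5:**
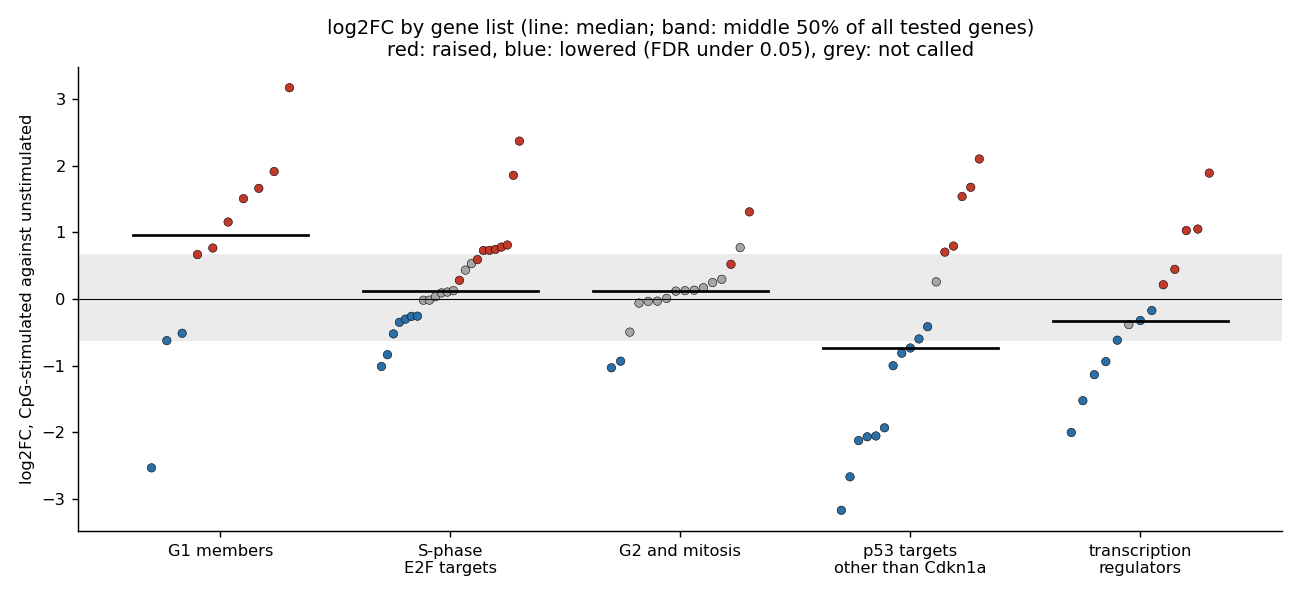
log2FC of CpG-stimulated against unstimulated samples (vertical axis) of each tested gene in the 10 G1 genes and 4 further lists (horizontal axis), with a line at the median of each list. Red marks raised, blue lowered and grey not called genes. The medians are 0.96 for the 10 G1 genes, 0.11 for S-phase E2F targets, 0.12 for G2 and mitosis, -0.74 for p53 targets and -0.32 for the regulators, beside a grey band from -0.62 to 0.65 for the middle 50% of all tested genes.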

How the data were processed

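RNA of splenic B cells was sequenced with 3 CpG-stimulated and 3 unstimulated libraries. The authors' processing notes name FastQC 0.11.7, Trim Galore 0.6.5, STAR 2.6.1a, featureCounts of Subread 2.0.1 and mm10. The deposited values are log2 CPM that the authors made with voom and quantile normalization, 23420 genes in each of 6 samples. A library's depth is not in these values. The zero level of -5.15 gives a common library of 17.8M reads, on which 10 reads are worth -0.76, and 5443 genes were at zero in all samples.

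limma 3.58.1 (R 4.3.3; lmFit, eBayes with a trend, two-sided, Benjamini-Hochberg) was fitted to the deposited values of genes over 10 reads' worth in at least 3 samples. It was tested on simulated data. Voom weights could not be rebuilt without counts. Exon lengths came from GENCODE M21. Python 3.11.15 did the rest. Exact permutation tests compared ratios of members within samples.

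The members and lists were chosen with earlier results of these data known. Named from each list were up to 3 genes with the largest and 3 with the most negative log2FC past the FDR without overlap between groups, and every other kinase, inhibitor, pocket protein and E2F gene. The values of 1 gene that this rule names are not reported here. Ighm, Trac and Ly6g were not matched.

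Samples of the same number deviated together (r = 0.435, 0.224 and 0.300 over genes, against -0.281 to 0.028 for other pairs) and carry the same sex label, so replicate number was tried as a block. In 373 genes the deposited values were shifted alike in the samples of 1 replicate number. These genes lay below the filter on low values, so none of them entered the r given above. Whether genes above the filter were shifted too was not tested. Such a shift leaves the log2FC as it is and changes the spread between replicates. The limma p-values and FDR set a difference between the groups against the spread between these samples. If the shift made that spread smaller, they would be too small, which was not tested. Alternatives were no filter, 10 reads in all samples, the replicate block, log2(CPM + 1), no variance trend, centring on the median, a test against a log2FC of 0.5 (treat), ratios without exon length and each sample left out. Leaving out replicate 2 of both groups was added after seeing the data.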

Additional observations from a re-analysis of the deposited data

How the results depend on the processing

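Ccnd2, Cdk4, Cdk6, Cdkn1a, Cdkn1b and Cdkn2c kept their call under all 14 alternatives, and of 140 values for the 10 members 123 kept direction and side of the threshold, 17 lost the call and none reversed. For 51 other named genes 688 of 713 values did so, 17 lost a call, 6 gained it and 2 reversed. The reversed values were those of Ccna2 (-0.028 to 0.448 with each sample left out) and Ccnh (-0.000167 to 0.164). Tested against a log2FC of 0.5 (treat), limma lowered 1 member, and Ccnd3 (-0.52, FDR = 0.759), Ccne1 (-0.63, FDR = 0.559), Ccne2 (0.67, FDR = 0.486) and E2f1 (0.76, FDR = 0.194) lost their call. All tested genes then gave 2315 raised and 2186 lowered. The lists gave 0 lowered for kinases and activators, 1 raised and 2 lowered for MuvB and B-MYB, 1 lowered for S-phase targets, 1 raised and 0 lowered for G2 and mitosis, 7 lowered for p53 targets, and 3 raised and 4 lowered for regulators. Without the filter Ccne1 (-0.63, FDR = 0.0753) and Ccne2 (0.67, FDR = 0.0515) were not called. With replicate 2 of both groups left out, 6 members were raised and 3 lowered, Ccne2 (0.49, FDR = 0.183) was not called and 4 genes of G2 and mitosis were raised. With each sample left out, Ccne1 lay between -0.75 and -0.49 and Ccne2 between 0.54 and 0.81, members raised between 6 and 7 and lowered between 2 and 3, and other CDK inhibitors raised between 0 and 1 (1 without stimulated replicate 1). With the replicate block 6 members were raised and 3 lowered, Ccne2 alone among members lost its call (0.67, FDR = 0.0520), all tested genes gave 4390 raised and 4287 lowered, and 8 regulators were lowered. On log2(CPM + 1) 1331 and 1351 of all tested genes passed a log2FC of 1 in the raised and lowered direction. Centring moved the median over tested genes by -0.0043. For within-sample ratios, the difference between the groups cannot change without exon length or with samples matched by replicate number. These alternatives are therefore no check on its size. With matched samples the exact sign-flip p was 0.25 for each pair, the smallest possible. Depth was not varied.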
